A study of Mus musculus with 2 samples.

Results

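Cholesterol synthesis and its sterol control were examined in mouse liver through 28 genes: 18 enzymes of synthesis, 4 genes of sterol sensing, and 6 genes of sterol transport, esterification and receptor turnover. They were chosen by name, with earlier results of these data known. All 28 were found among the 45777 genes of the transcript table, and all 28 were among the 15857 genes with at least 10 estimated counts in at least 1 library. C57BL/6 mice (C57BL/6 N in the methods of the study), 7 weeks old when a high-fat diet (HFD) began, were fed the diet for 18 weeks and received an adeno-associated virus (AAV) at week 13, so that 5 weeks passed before the liver was taken. The AAV carried either GFP (AAV-GFP, the control) or Wee1-AS, a long noncoding RNA (AAV-Wee1-AS). Both groups therefore share the diet and an AAV injection behind the eye. Per the methods of the study, the AAV was of serotype AAV9, which is not specific to hepatocytes, in a vector with a CMV promoter. A CMV promoter is active in many cell types. The sex of these mice is not given in the sources used here, and nothing says that mice were pooled. Wee1-AS itself was not analysed here.

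Each group is 1 library of poly-A RNA, although the deposited design describes 4 livers. No spread between mice could be measured, and no p-value is given. Intervals are exact 95% intervals that cover counting error only, so they compare these libraries and not the treatments. The libraries held 55466182 counts (AAV-GFP) and 48079335 counts (AAV-Wee1-AS). The hepatocyte markers measured, 6 of 7 listed, summed to 84816 TPM (a level per transcript length, relative to all transcripts of the library) with AAV-GFP and 95014 with AAV-Wee1-AS. Alb alone was at 37459 and 53289 TPM, and Ttr (13404 and 8510 TPM) and Apoa1 (16330 and 13404 TPM) were the 2 of these 6 that were lower in log2 ratio. Kupffer cell and macrophage markers summed to 426 and 326 TPM, stellate cell markers to 192 and 158, endothelial markers to 149 and 128, cholangiocyte markers to 44.1 and 37.9, and lymphocyte markers to 6.00 and 5.83. Of the markers measured, 4 of 7 macrophage, 4 of 7 stellate and 4 of 7 endothelial genes were lower with AAV-Wee1-AS, and none of any list was at 0 in both libraries. In the stellate list Col1a1 (-2.30 in log2 ratio) and Pdgfrb (-1.08) were past 2-fold lower and Lrat (1.48) was past 2-fold higher. Past 2-fold higher were also Vsig4 (1.53) and Marco (1.62) of the macrophage list and Ptprb (1.66) of the endothelial list. Neither of those lists had a marker past 2-fold lower. Of the hepatocyte list Cps1 (1.22) was past 2-fold higher. In the lymphocyte list Ms4a1 (3.78, from 0 counts with AAV-GFP and 23 with AAV-Wee1-AS) and Ptprc (1.14) were past 2-fold higher. Nkg7 (-1.01) of that list was past 2-fold lower. After the adjustment for base composition and length described below, only Col1a1 (-2.03), Marco (2.20) and Ms4a1 (2.63) of these markers stayed past 2-fold. Dcn (-1.22), a stellate marker, came past it. Fewer cells of a type and less RNA per cell cannot be told apart in whole liver, and the part of cell composition in the results below was not tested.

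Cholesterol is built from acetyl-CoA in the cytosol and the endoplasmic reticulum, by way of mevalonate, farnesyl diphosphate, squalene and lanosterol. When membrane sterol is low, Scap carries SREBP-2, the product of Srebf2, to the Golgi, where proteases free its transcription factor domain, which switches on most enzymes of the route. When sterol is plentiful, Insig1 and Insig2 hold Scap in the endoplasmic reticulum. The liver makes cholesterol for lipoproteins and bile acids and stores the excess as esters.

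SREBP-2 acts at promoters beside the factors NF-Y, which binds CCAAT boxes, and Sp1, which binds GC boxes, so the sequences before the starts of the genes were read. RefSeq windows of 300 bases (250 before the start and 50 after it, GRCm38.p6) were matched by symbol for 22 of the 28 genes, of which 4 (Dhcr7, Insig2, Pmvk and Scap) have more than 1 start, so that 28 windows were read. Those without an entry were Fdps, Fdft1, Sqle, Stard4, Soat2 and Npc1. The 250 bases before the start are shown for 4 genes that differ in their values below: Hmgcs1 was over 2-fold higher with AAV-Wee1-AS, Mvd was lower, Ebp was nearly even and Sc5d was higher, but less so than most genes of its base composition. No exon of the GENCODE M21 annotation lies within these 4 stretches. Each is written 5′ to 3′ on the strand of the gene, and capitals mark CCAAT boxes on either strand (ATTGG is CCAAT read on the other strand) and, in Hmgcs1, a match to TCACNCCAC.
Hmgcs1, chr13:119690101-119690350, plus strand: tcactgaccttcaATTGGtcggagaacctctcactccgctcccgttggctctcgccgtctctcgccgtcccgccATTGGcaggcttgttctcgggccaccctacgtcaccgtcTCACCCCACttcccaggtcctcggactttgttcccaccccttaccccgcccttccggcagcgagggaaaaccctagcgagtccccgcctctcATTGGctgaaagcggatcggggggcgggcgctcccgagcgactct
Mvd, chr8:122443423-122443672, minus strand: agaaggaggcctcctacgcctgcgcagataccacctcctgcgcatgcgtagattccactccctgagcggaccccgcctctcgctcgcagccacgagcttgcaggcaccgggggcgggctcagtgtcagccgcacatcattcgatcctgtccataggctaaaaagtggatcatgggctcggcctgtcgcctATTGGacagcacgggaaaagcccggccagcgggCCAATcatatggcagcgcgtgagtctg
Ebp, chrX:8193513-8193762, minus strand: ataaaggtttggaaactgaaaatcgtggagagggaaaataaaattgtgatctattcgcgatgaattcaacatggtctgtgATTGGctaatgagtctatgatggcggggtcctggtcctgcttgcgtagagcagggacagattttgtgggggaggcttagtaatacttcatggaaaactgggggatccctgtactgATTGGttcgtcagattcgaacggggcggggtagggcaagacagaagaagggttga
Sc5d, chr9:42264301-42264550, minus strand: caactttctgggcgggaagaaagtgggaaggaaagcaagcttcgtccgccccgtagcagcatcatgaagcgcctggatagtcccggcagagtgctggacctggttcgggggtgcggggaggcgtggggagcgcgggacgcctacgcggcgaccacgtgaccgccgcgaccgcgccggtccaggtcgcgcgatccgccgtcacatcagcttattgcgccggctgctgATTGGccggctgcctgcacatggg

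At least 1 CCAAT was found, on either strand and in any window of a gene, in 20 of 22 genes (90.9%), all but Acat2 and Scap, against 42.8% of the 11566 genes past the count filter that have a window. By window it was found in 20 of 28 (71.4%), against 37.4% of all 32851 windows. The windows of the 22 genes held 43 CCAAT boxes, of which 40 begin before the start, with a median position of -60 (first base, counted from the start of its own window at 0). In 12 genes there were 2 or more, and in 7 there were 3 or more. The boxes of Idi1 begin at -45 and -14, and the boxes of Mvd at -60 and -27. For Idi1 all 250 bases before the start lie within GENCODE M21 exons, of Gm48574 or Idi1. Only 5 of the 22 genes have no such exon base before the start. GGGCGG was found in 21 of 22 genes, against 63.8% of genes past the filter. CACGTG, an E-box, was found in 5 of 22, against 11.3%. TCACNCCAC, a sterol response element in letters, was found only in Hmgcs1 among the 22, beginning at -137, against 1.44% of all 27025 genes with a window. Its shorter core CACNCCA, which lies within the longer motif, was found in 7 of 22, against 20.6% of all genes with a window. Genes that were higher and genes that were lower with AAV-Wee1-AS both carried CCAAT boxes. These matches are a description of letters in these windows.

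**Figure D1:**
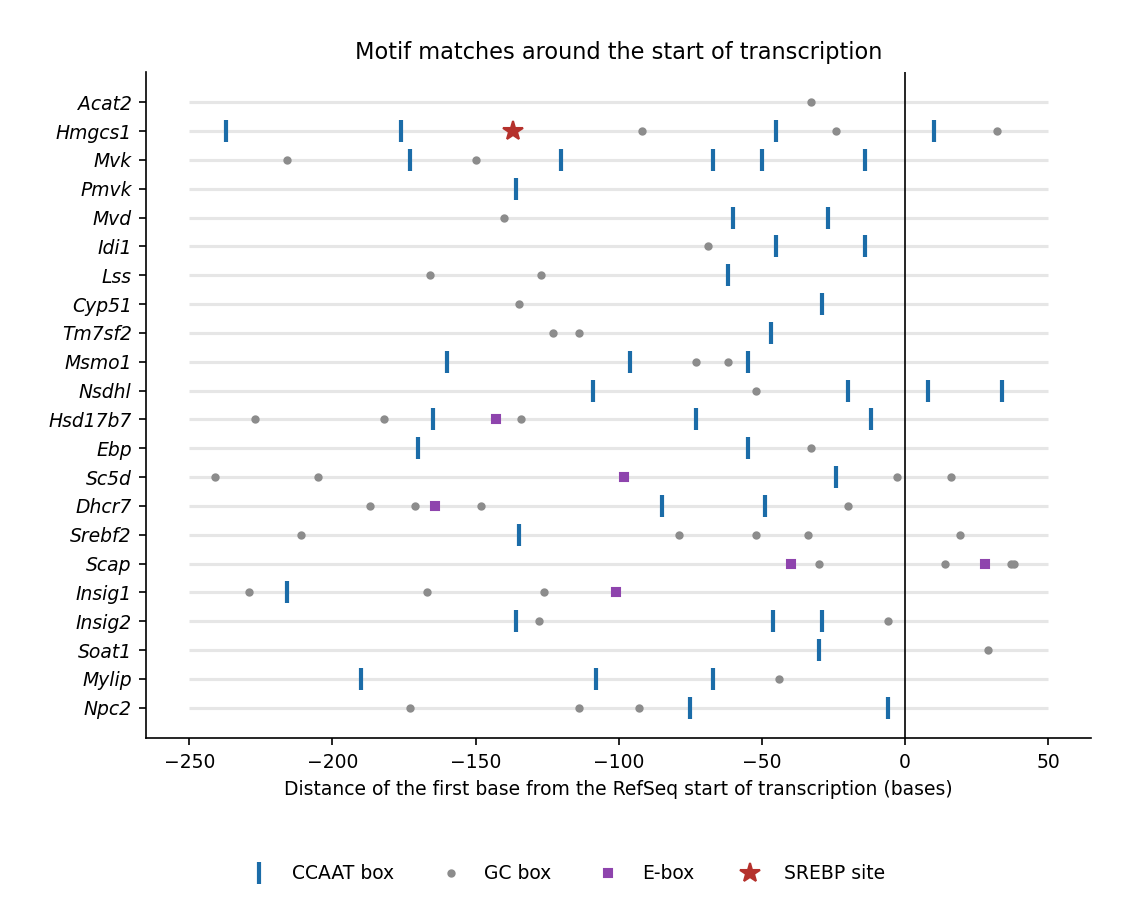
Motif matches in the RefSeq windows of 22 genes, by distance in bases of the first base of each match from the start of transcription of its window (x axis) and gene (y axis); marks stand for CCAAT boxes, GC boxes (GGGCGG), E-boxes (CACGTG) and the match to TCACNCCAC. CCAAT boxes appear in 20 of 22 genes, and 40 of 43 begin before the start.

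The 28 genes did not move as 1 block: 14 of the 18 enzymes of synthesis were higher with AAV-Wee1-AS (median log2 ratio 0.28), while the other 10 genes were split, 5 higher and 5 lower (median -0.01). Idi1, Stard4 and Sqle differed most. Of the 28 genes, 19 had a log2 ratio (AAV-Wee1-AS over AAV-GFP, from counts scaled between libraries) above 0, or 67.9%, where 49.9% of all genes tested did. Their median was 0.25, and the median of all genes tested was -0.00. Past 2-fold higher were 5 genes, Idi1, Stard4, Sqle, Hmgcs1 and Cyp51, or 17.9%, where 22.5% of all genes were. None was past 2-fold lower, where 8.43% of all genes were, so that 31% of all genes were past 2-fold in one direction or the other. A share of 17.9% is not above the background, so the number of genes past 2-fold is no result about the route. Counting intervals lay wholly above an even ratio for 17 genes (39.6% of all genes) and wholly below it for 8 (37.4% of all genes), and they spanned it for Fdps, Fdft1 and Dhcr7. For 4 genes, without Cyp51, the interval lay wholly past 2-fold, where 16.3% of all genes did, and it lay wholly past 2-fold lower for none, where 3.61% of all genes did. The summed level of the 18 enzymes was 1208 TPM with AAV-GFP and 1456 TPM with AAV-Wee1-AS, and that of the 6 genes of transport, esterification and receptor turnover was 165 and 139 TPM.

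**Figure D2:**
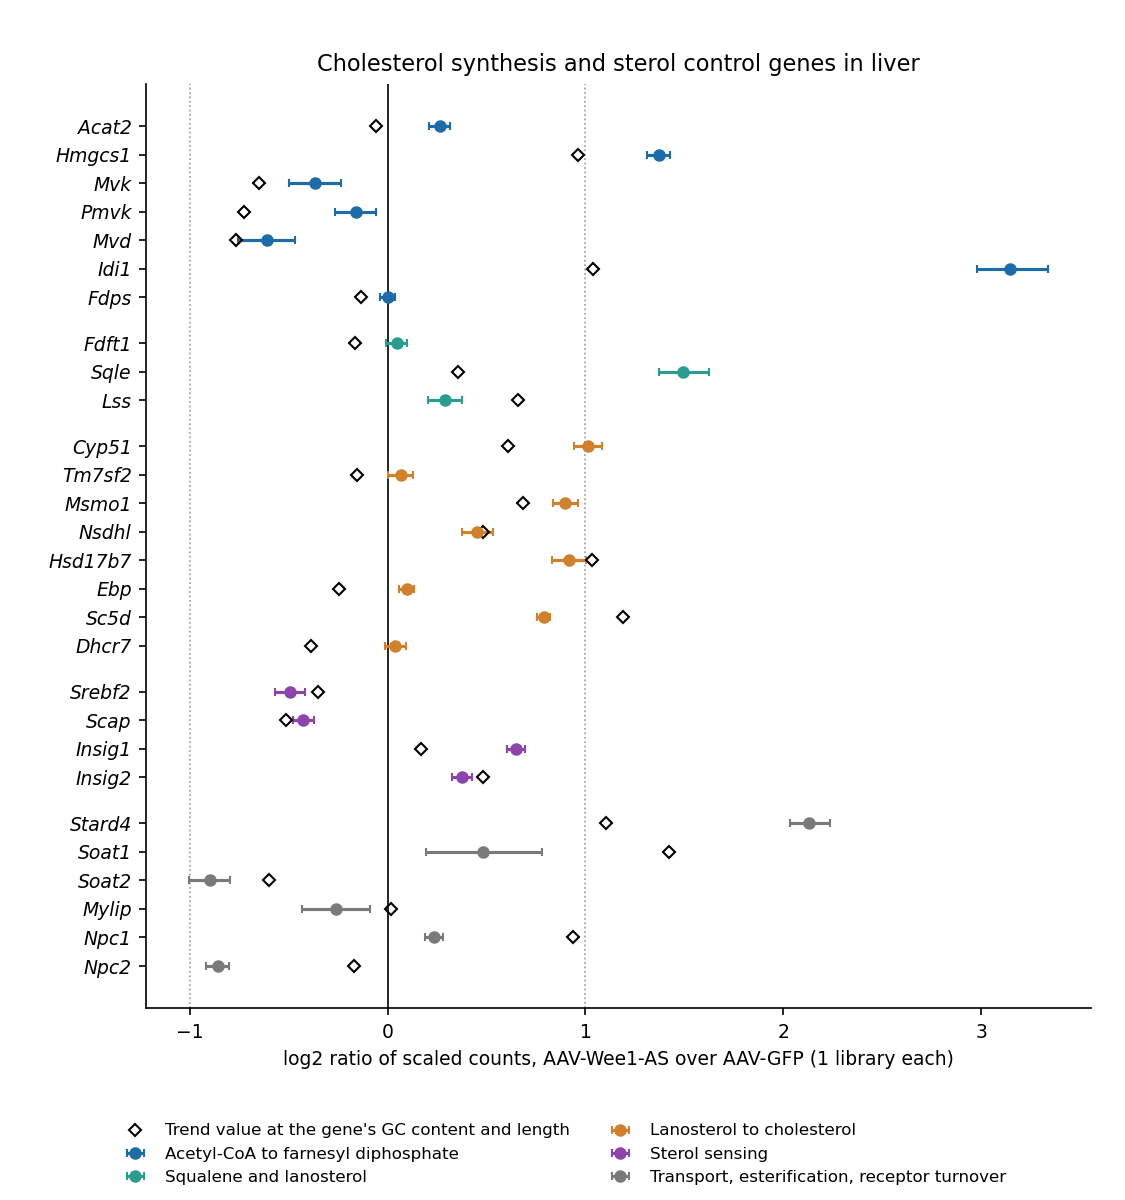
Log2 ratio of scaled counts (x axis, AAV-Wee1-AS over AAV-GFP, 1 library each) for the 28 genes by role (y axis); bars are exact 95% counting intervals, open diamonds are the trend value of all genes at the same GC content and transcript length, and dotted lines mark 2-fold. Idi1 at 3.15 and Stard4 at 2.13 lie farthest above 0, and Idi1 and Sqle lie farthest above their trend values of 1.04 and 0.35.

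The ratio between these libraries followed base composition across the whole transcriptome, and the route followed it too. Over the 15109 genes with a known GC content, the rank correlation of log2 ratio and GC content (Spearman) was -0.67, and over the 28 genes it was -0.87. The points share both libraries, so these values are descriptions. Genes with 42 to 44% GC had a median log2 ratio of 1.13, and genes with 58 to 60% GC had a median of -0.67. GC content among the 28 ran from 41.9% in Idi1 to 59.1% in Scap. To place each gene against genes of like composition, the trend with GC content and transcript length over all genes was taken as a reference, and the remainder after removing it is called the adjusted log2 ratio. Intervals of adjusted values are the counting intervals less the trend value, and they leave out the error of the trend. Over all genes, 3572 were past 2-fold higher and 1337 lower as measured, and 1131 were higher and 1270 lower after adjustment. After adjustment 3 of the 28 genes were past 2-fold higher (Idi1, Sqle and Stard4), or 10.7%, where 7.49% of all genes were, and none was lower, where 8.41% of all genes were. The adjusted median was 0.19, with 17 genes above 0, where 49.8% of all genes were; it was 0.25 for the 18 enzymes and -0.21 for the other 10 genes, of which 7 lay below 0. The sign differed between the measured and the adjusted value in 12 genes, which are named with both values below. The cause of the trend was not tested.

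**Figure D3:**
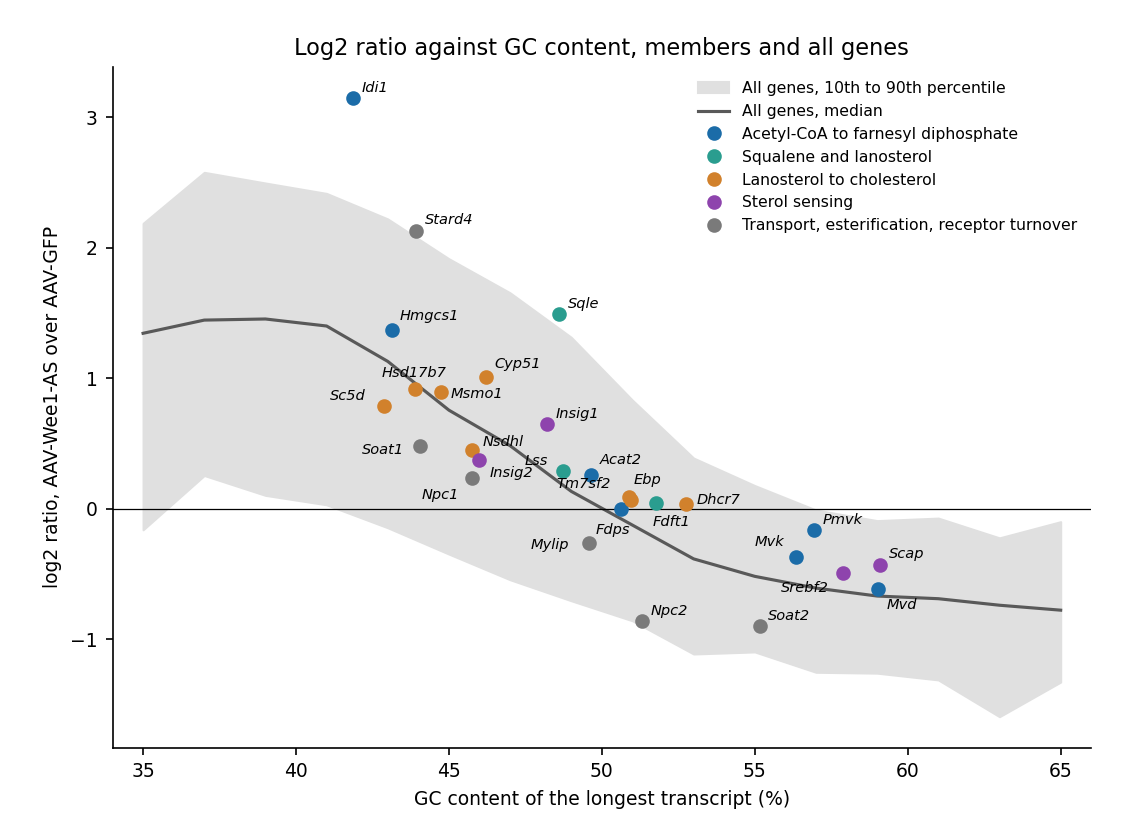
Log2 ratio (y axis, AAV-Wee1-AS over AAV-GFP) against GC content in percent of the longest transcript (x axis); the line is the median and the band the 10th to 90th percentile of all genes in bins of GC content, and points are the 28 genes by role. Most of the 28 lie along the falling median, Idi1 and Sqle lie above the band, Stard4 lies at its upper edge and Npc2 at its lower edge.

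The first stage, from acetyl-CoA to farnesyl diphosphate, had 3 enzymes that were higher (Idi1, Hmgcs1 and, by less, Acat2), 3 that were lower (Mvk, Pmvk and Mvd) and Fdps, which was even. Idi1 (chr13:8885606-8892396, mm10) isomerizes isopentenyl diphosphate to dimethylallyl diphosphate, the first of the 2 building blocks that are joined. It had 287 counts with AAV-GFP and 2112 with AAV-Wee1-AS, or 3.03 and 26.4 TPM. Its ratio was 8.86-fold (interval 7.88 to 10.1), higher than that of 99.3% of all genes tested. After adjustment its log2 ratio was 2.11 (1.94 to 2.30), still above 98.9% of genes. Hmgcs1 (chr13:119690351-119708260) makes HMG-CoA, the precursor of mevalonate, in the cytosol. It had 3515 and 7493 counts, or 30.1 and 75.8 TPM, a log2 ratio of 1.37 (1.31 to 1.43), against a trend value of 0.96 for its GC content of 43.1%. Its adjusted value was 0.41, so most of the measured ratio was shared with genes of like composition. Acat2, the thiolase that joins acetyl-CoA units, had 5880 and 5819 counts, 86.0 and 100.4 TPM, and a log2 ratio of 0.26 (adjusted 0.32).

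The kinases and the decarboxylase that convert mevalonate to isopentenyl diphosphate were lower in counts. Mevalonate kinase, Mvk, had 1227 counts with AAV-GFP and 785 with AAV-Wee1-AS, with a log2 ratio of -0.37 (-0.50 to -0.24). Phosphomevalonate kinase, Pmvk, had 1770 and 1304 counts, with a log2 ratio of -0.16 (-0.27 to -0.06). The decarboxylase Mvd had 1158 and 625 counts, with a log2 ratio of -0.61 (-0.75 to -0.47), the lowest of the 18 enzymes as measured. By most abundant transcript Mvk (-1.29) lay below Mvd (-1.15), and after adjustment Sc5d (-0.40) was the lowest of the 18. Mvk, Pmvk and Mvd all have over 56% GC, and their adjusted values were above 0: 0.29 for Mvk, 0.57 for Pmvk and 0.16 for Mvd. The direction of these enzymes therefore depended on the adjustment. Farnesyl diphosphate synthase, Fdps, was the most abundant of the 28 genes in both libraries, with 319 TPM (13403 counts) and 308 TPM (11055 counts). Its log2 ratio was -0.00 (-0.04 to 0.04), and its adjusted value 0.13. After adjustment all 7 genes of this stage lay above 0, with a median of 0.32. The excess of Fdps over Idi1 in TPM, enzymes of consecutive steps, was 105-fold with AAV-GFP and 11.7-fold with AAV-Wee1-AS. Their adjusted log2 ratios (0.13 and 2.11) lay closer together than the measured ones (-0.00 and 3.15).

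At the commitment to sterols, only Sqle of the 3 genes stood well apart from even. Sqle (chr15:59315092-59331193) is the monooxygenase that forms squalene epoxide, a rate-limiting step. It had 736 counts with AAV-GFP and 1714 with AAV-Wee1-AS, or 8.12 and 22.3 TPM, and a log2 ratio of 1.49 (1.37 to 1.62). The adjusted value was 1.14 (1.02 to 1.27), so Sqle stayed past 2-fold in this comparison. Squalene synthase, Fdft1, had 6174 and 5257 counts and a log2 ratio of 0.05 (-0.01 to 0.10). That ratio was below 0 when libraries were scaled by their totals or upper quartiles, when FPKM or TPM was used, or when its most abundant transcript alone was used (-0.22). With totals (-0.03) and upper quartiles (-0.09) it stayed above the medians of all genes, -0.07 and -0.13, but with FPKM (-0.10), TPM (-0.08) and the most abundant transcript it lay below them (-0.03, -0.03 and -0.01). Its adjusted value was 0.21. Lanosterol synthase, Lss, which closes the sterol rings, had 2197 and 2214 counts and a log2 ratio of 0.29 (0.20 to 0.37). Its transcript is long, and its adjusted value was -0.37, but 0.07 with the trend of GC content alone removed.

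From lanosterol to cholesterol, all 8 genes had a log2 ratio above 0, where 49.9% of all genes tested did. The median of the 8 was 0.62, and none had an interval wholly past 2-fold. Their median GC content was 46.0%. Among all genes the median log2 ratio was 0.76 at 44 to 46% GC and 0.48 at 46 to 48% GC. Cyp51, the lanosterol demethylase, had 2669 counts with AAV-GFP and 4443 with AAV-Wee1-AS, or 18.6 and 36.6 TPM. Its log2 ratio was 1.01 (0.94 to 1.08) and dropped under 2-fold when libraries were scaled by their totals (0.94), by upper quartiles (0.88) or after adjustment (0.40). The C4 methyl groups are removed by Msmo1, Nsdhl and Hsd17b7. Msmo1 had 3402 and 5229 counts and a log2 ratio of 0.90. Nsdhl had 2408 and 2720 counts and a log2 ratio of 0.45. Hsd17b7 had 1790 and 2789 counts and a log2 ratio of 0.92. These genes have between 43.9% and 45.8% GC, and their adjusted values were 0.22, -0.03 and -0.12, so that Nsdhl and Hsd17b7 changed sign.

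Ebp and Sc5d, late enzymes of the route, followed Fdps as its most abundant genes in both libraries. Sc5d, the sterol C5 desaturase, had 12405 and 17666 counts, 104 and 190 TPM, and a log2 ratio of 0.79 (0.75 to 0.82). At 42.9% GC its trend value was 1.19, and its adjusted value was -0.40. The other late enzymes were close to even. Ebp, the sterol isomerase, had 12783 and 11262 counts, 223 and 231 TPM, and a log2 ratio of 0.10 (0.06 to 0.13). Tm7sf2, a sterol reductase, had 4275 and 3692 counts and a log2 ratio of 0.07 (0.00 to 0.13). Dhcr7, which reduces 7-dehydrocholesterol to cholesterol, had 6289 and 5326 counts and a log2 ratio of 0.04 (-0.01 to 0.09). With upper-quartile scaling, which moved the median of all genes to -0.13, the ratios of Ebp, Tm7sf2 and Dhcr7 were -0.04, -0.07 and -0.09, all still above that median, and scaling by library totals also put Tm7sf2 and Dhcr7 below 0. Adjusted, they were 0.34, 0.22 and 0.43. After adjustment 5 of the 8 genes of this stage lay above 0, and the median was 0.22.

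**Figure D4:**
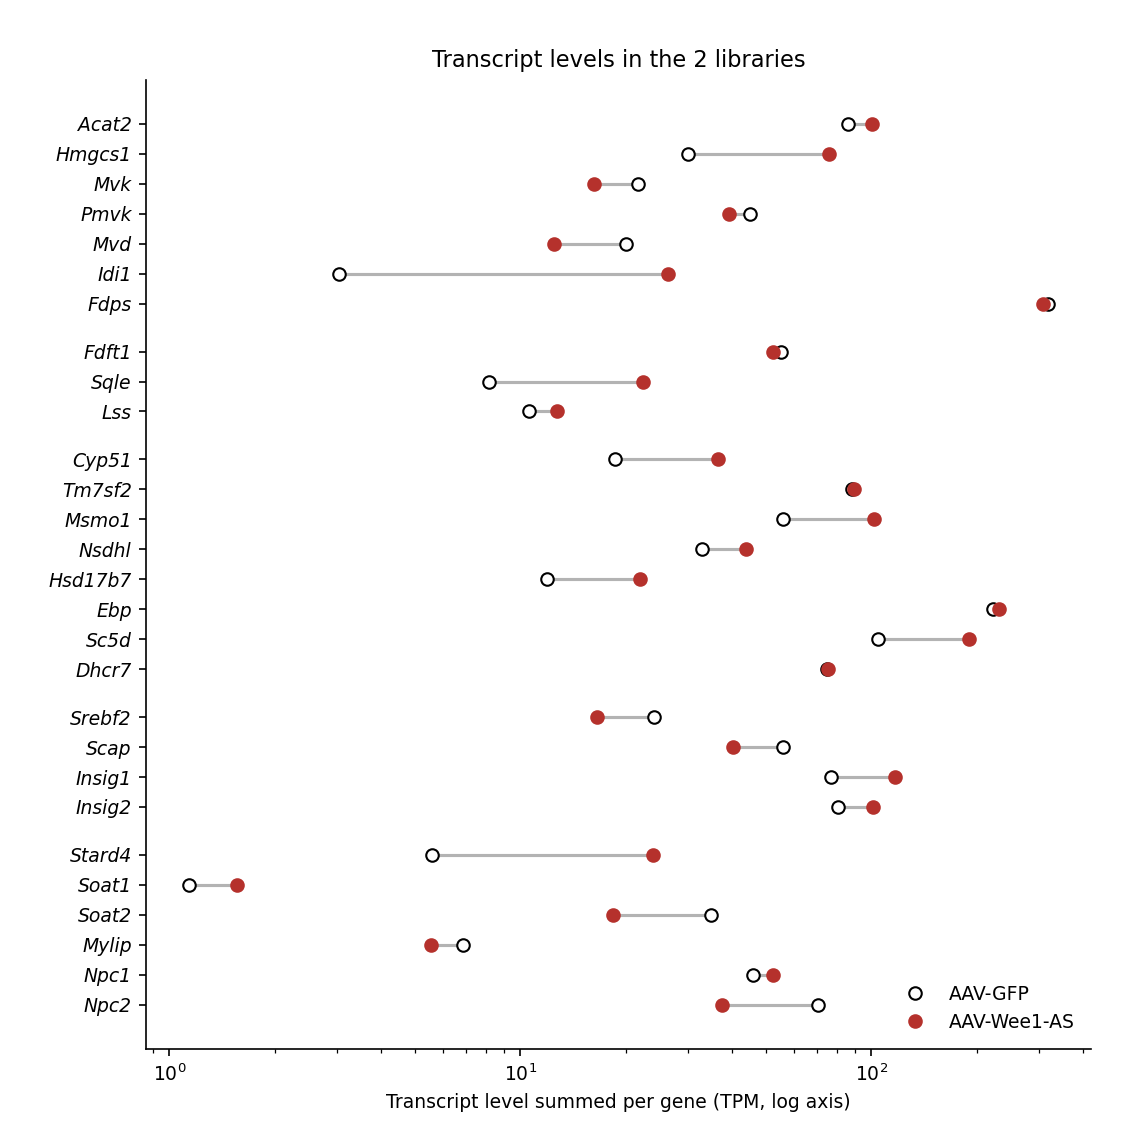
Transcript level in TPM summed per gene (x axis, log scale) for the 28 genes (y axis, by role), with open points for the AAV-GFP library and filled points for the AAV-Wee1-AS library. Fdps was the most abundant in both, at 319 and 308 TPM, and Idi1 moved farthest, from 3.03 to 26.4 TPM.

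Among the sterol-sensing genes, transcripts of Insig1 and Insig2 were higher and those of Srebf2 and Scap were lower with AAV-Wee1-AS, but the signs of Insig2 and Scap turned after adjustment. Insig1, itself a known target of SREBP-2, had 6677 counts with AAV-GFP and 8630 with AAV-Wee1-AS, or 76.5 and 117 TPM. Its log2 ratio was 0.65 (0.60 to 0.69), and its adjusted value 0.48 (0.43 to 0.53). Insig2 had 6581 and 7042 counts, 80.5 and 101 TPM, and a log2 ratio of 0.38 (0.33 to 0.42). Its adjusted value was -0.11, of the opposite sign. Insig1 was below Insig2 in TPM with AAV-GFP (a ratio of 0.950) and above it with AAV-Wee1-AS (1.16).

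Srebf2 had 3974 counts with AAV-GFP and 2327 with AAV-Wee1-AS, or 24.0 and 16.5 TPM. Its log2 ratio was -0.49 (-0.57 to -0.42). Scap had 7818 and 4796 counts, 55.8 and 40.4 TPM, and a log2 ratio of -0.43 (-0.48 to -0.38). Both genes are rich in GC (57.9% and 59.1%), and their adjusted values were close to even, at -0.14 for Srebf2 and 0.09 for Scap. With the trend of GC content alone removed, Srebf2 was at 0.12. Among these 4 genes, Insig1 was the one whose value lay farthest from its trend. The ratio of Insig1 to Srebf2 in TPM was 3.19 with AAV-GFP and 7.06 with AAV-Wee1-AS. Their log2 ratios lay closer together after adjustment (0.48 and -0.14), and closer still with GC content alone removed (0.35 and 0.12).

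Among the genes of transport and storage, Stard4 was the highest in ratio, second to Idi1 among the 28, and Soat2 and Npc2 were the lowest of the 28, with overlapping intervals. After adjustment, or by most abundant transcript, other genes lay below Soat2. Stard4 is a soluble protein that carries cholesterol between membranes. It had 979 counts with AAV-GFP and 3545 with AAV-Wee1-AS, or 5.58 and 23.9 TPM. Its ratio was 4.38-fold (4.09 to 4.72), and its adjusted log2 ratio was 1.03 (0.93 to 1.13), an interval that reaches under 2-fold.

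The acyltransferases Soat1 and Soat2 esterify cholesterol for storage, and Soat2 is the form of hepatocytes. Soat2 had 2477 and 1095 counts, 35.0 and 18.3 TPM, and a log2 ratio of -0.90 (-1.004 to -0.80). Adjusted, it was -0.30, or -0.40 with GC content alone removed. Soat1 had 180 and 208 counts, the lowest level of the 28 in both libraries (1.14 and 1.55 TPM), and a log2 ratio of 0.48 (0.19 to 0.78). For a GC content of 44.1% and a long transcript its trend value was 1.42, which gave an adjusted value of -0.94, or -0.46 with GC content alone removed. The length in that trend was 8371 bases, of the longest GENCODE M21 transcript, while the RefSeq transcript with all counts of Soat1 has 4785. Soat2 exceeded Soat1 30.8-fold in TPM with AAV-GFP and 11.8-fold with AAV-Wee1-AS. As measured, the log2 ratio of Soat2 lay below that of Soat1, but the adjusted value of Soat2 lay above that of Soat1. With GC content alone removed the values of these genes lay close together. The macrophage markers, cells in which Soat1 is the main form, are given above and their part was not tested.

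Npc1 and Npc2 pass cholesterol out of lysosomes. Npc2 had 7544 counts with AAV-GFP and 3427 with AAV-Wee1-AS, 70.2 and 37.6 TPM, and a log2 ratio of -0.86 (-0.92 to -0.80). It was lower under adjustment as well (-0.69, or -0.73 with GC content alone removed). Npc1 had 7811 and 7588 counts, 45.9 and 52.4 TPM, and a log2 ratio of 0.24 (0.19 to 0.28), with an adjusted value of -0.70, or -0.45 with GC content alone removed. The order of these partners in TPM turned: Npc2 over Npc1 was 1.53 with AAV-GFP and 0.718 with AAV-Wee1-AS. Their adjusted values were nearly equal with both trends removed, but stood apart with GC content alone removed. Mylip, a ubiquitin ligase that sends lipoprotein receptors to degradation, had 673 and 463 counts and a log2 ratio of -0.26 (-0.44 to -0.09), adjusted -0.28. After adjustment 5 of the 6 genes of this group lay below 0, all but Stard4.

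Most genes were quantified from several RefSeq transcripts whose counts are estimated shares. Gene sums are therefore firmer than transcript values. Dhcr7 had 9 transcripts whose shares differed between the libraries while their sum was nearly even: XM_030242075 held 55.5% of its counts with AAV-GFP and 30.5% with AAV-Wee1-AS, and XM_006508478 held 2.51% and 31.5%. For Hmgcs1, NM_001291439 had 1282 and 3566 counts and NM_145942 had 1958 and 3308, so both were higher. For Mvk, XM_006530185 had 1046 and 352 counts while its other transcripts together were higher. For Mvd, NM_138656 had 1154 and 428 counts, and the noncoding NR_028354 had 4 and 197. Counting Mvk and Mvd by their most abundant transcript alone put both past 2-fold lower. With that choice 2060 of all 15857 genes were past 2-fold lower, so 2 of the 28 is not above the share of all genes. The same choice moved Dhcr7 from 0.04 to -0.83 and put Hsd17b7 past 2-fold higher at 1.01, so that 6 of the 28 genes were past 2-fold higher, as were 3767 of all 15857 genes, a like share.

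**Figure D5:**
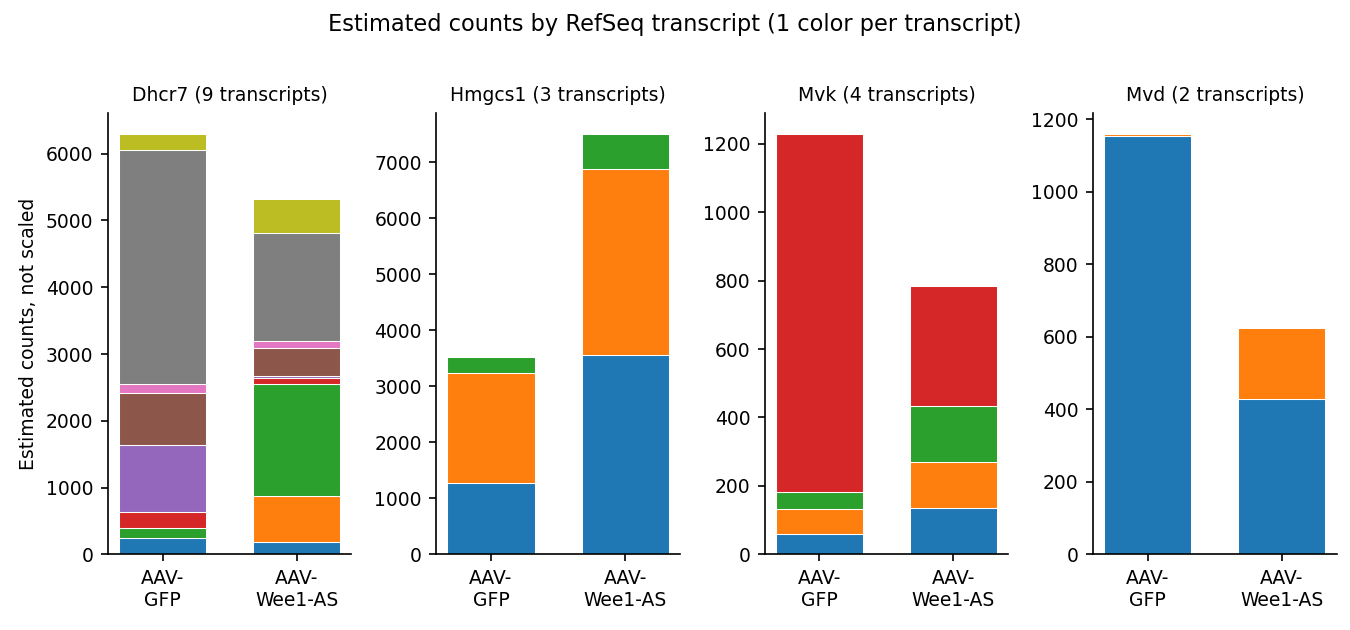
Estimated counts (y axis, not scaled between libraries) of Dhcr7, Hmgcs1, Mvk and Mvd in the AAV-GFP and AAV-Wee1-AS libraries, stacked by RefSeq transcript with 1 color each. The shares within Dhcr7 differ between libraries while the sums are 6289 and 5326 counts.

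Neighbors and relatives could share reads with some of these genes. Fdft1 overlaps Ctsb, on the opposite strand and far more abundant (64389 and 36719 counts), by 774 bases. By RefSeq coordinates Tm7sf2 overlaps Vps51 on the same strand by 9 bases, and Npc1 overlaps Rmc1 on the opposite strand by 8982 bases. In the GENCODE M21 annotation the overlap of Tm7sf2 is longer and that of Npc1 is shorter. Acat3, close in sequence to Acat2, had 12973 and 10698 counts and a log2 ratio of -0.00. Idi2, the relative of Idi1, had no counts in either library. How reads were divided between overlapping or similar genes is not given in the sources used here.

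Around the route, 34 further genes of isoprenoid branches, SREBP processing, sterol-regulated degradation, electron supply, transport and liver X receptor control were all measured and past the count filter. Of these, 16 were above 0 and 18 below, with a median of -0.03. Past 2-fold higher were 9 (26.5%, against 22.5% of all genes), and none was past 2-fold lower, against 8.43% of all genes. The interval lay wholly past 2-fold for 7 of the 9, all but Ggps1 and Nceh1, or 20.6% of the 34, against 16.3% of all genes. The shares past 2-fold higher are near those of all genes, so they are no result about the list. The lack of genes past 2-fold lower was not tested. Rnf139, a ubiquitin ligase of the endoplasmic reticulum, had 379 and 1207 counts and a log2 ratio of 1.94 (1.78 to 2.12). Gramd1c, of the family that moves cholesterol from the plasma membrane, had 275 and 828 counts and a log2 ratio of 1.86 (1.67 to 2.07). Nus1, a subunit of the enzyme that makes dolichol precursors, was at 1.39 (1.27 to 1.52). Mbtps2, a protease that cleaves SREBPs, was at 1.35 (1.05 to 1.68) from 124 and 263 counts. Abca1, the exporter of cholesterol to apolipoproteins, was at 1.33 (1.26 to 1.39). Marchf6, a ligase that degrades squalene monooxygenase, was at 1.28 (1.22 to 1.35), and Cyb5b, an electron carrier, was at 1.08 (1.05 to 1.11). The trend values of these 7 genes ran from 0.70 in Cyb5b to 1.44 in Mbtps2, and none stayed past 2-fold after adjustment.

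Genes of this wider list at 100 TPM or more in a library were mostly nearer to even. Por, the reductase that passes electrons to Cyp51 and squalene monooxygenase, had 299 TPM with AAV-GFP and 415 with AAV-Wee1-AS and a log2 ratio of 0.51. Pgrmc1, a partner of Cyp51, had 505 and 793 TPM and a log2 ratio of 0.69. Cyb5r3, which reduces cytochrome b5, was at -0.40. Tmem97, a binding partner of Npc1, was at -0.41. Stard5, a sterol carrier, was at -0.11. Scarb1, the receptor for high-density lipoprotein, was at -0.58, and Nr1h3, liver X receptor alpha, was at -0.60. Lipa, the lysosomal lipase that frees cholesterol from esters, had 191 and 168 TPM and a log2 ratio of -0.15 (-0.18 to -0.11). After adjustment Cyb5r3 (0.19), Tmem97 (0.02), Stard5 (0.09) and Nr1h3 (0.10) lay above 0, so their signs turned. Pgrmc1 (0.10) and Scarb1 (-0.75) kept their signs, and the adjusted values of Por and Lipa are given further below.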

How the data were processed

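Liver poly-A RNA was sequenced from 2 libraries (TruSeq Stranded mRNA), 1 of AAV-GFP and 1 of AAV-Wee1-AS. Per the labels, the submitters' processing notes name Trimmomatic 0.38, HISAT2 2.1.0, SAMtools 1.9, StringTie 2.1.3b and the build mm10. The authors deposited 1 table of RefSeq transcripts with, per library, estimated counts, FPKM (fragments per transcript length and library size) and TPM (the same relative to the sum over transcripts). The deposited estimated counts are whole numbers equal to FPKM times transcript length over a constant of the library, rounded up, and are not normalized. Shares of overlapping transcripts are estimates.

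Estimated counts, FPKM and TPM were summed by gene symbol. Genes reaching 10 counts in either library were kept. Libraries were scaled by TMM factors (edgeR 4.0.16, R 4.3.3), which were 1.03 (AAV-GFP) and 0.975 (AAV-Wee1-AS). Log2 ratios used a prior count of 2, and the fold limit was 2. Exact Clopper-Pearson intervals at 95% came from the counts of both libraries. PCR copies are not separate molecules, so these intervals cover counting error only. With 1 library per group no test was run. Trends of the log2 ratio with GC content and length (longest GENCODE M21 transcript) were removed by lowess with a span of 0.3 and 5 cycles (statsmodels 0.14.6). The longest transcript can differ in length from the RefSeq transcripts that hold the counts of a gene. GC content was known for 95.3% of genes tested and for all 28 genes of the route. Promoter windows came from RefSeq. The steps were tested on simulated data.

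All 28 genes are named. Of the 34 further genes, those with an interval wholly past 2-fold or 100 TPM in a library are named, except for items not reported here, and others only as stated. The 28 genes and the lists were chosen with earlier results of these data known. Alternatives to TMM were upper quartiles, library totals and the size factors of DESeq2 1.42.0. Further alternatives were other count filters, a prior count of 0.5, FPKM and TPM with a pseudocount of 1, the most abundant transcript, and removal of the trends.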

Additional observations from a re-analysis of the deposited data

How the results depend on the processing

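No paired analysis was possible because each group holds 1 library, and for the same reason no library could be left out. No value changed from past 2-fold in one direction to past 2-fold in the other. The median log2 ratio of the 28 genes stayed above 0 under each alternative, between 0.12 (upper quartiles) and 0.27 (most abundant transcript), and that of the 18 enzymes between 0.14 and 0.28. Idi1, Sqle and Stard4 stayed past 2-fold higher under each alternative run, Hmgcs1 under all but the removal of trends. Cyp51 was under 2-fold with library totals, upper quartiles, no count filter, FPKM, TPM and after removal of trends. Genes of the route past 2-fold higher numbered 3 with the trends of GC content and length removed, and 3 with GC content alone removed, an alternative chosen after seeing the data. Those past 2-fold lower numbered 1 with upper quartiles (Soat2, beside 1759 of all 15857 genes) and 2 with the most abundant transcript (Mvk and Mvd). Of all genes, those lower numbered 2126 without a count filter, 874 with 10 counts in both libraries, 2060 with the most abundant transcript, 307 with FPKM and 438 with TPM. Those higher numbered 1029 with FPKM, 1608 with TPM, 1131 with trends removed and 1361 with GC content alone removed. A pseudocount of 1 shrinks ratios of low genes by construction, and a filter changes how many genes are tested; the cause of the other shifts was not tested. Depth limits Soat1 (180 and 208 counts) and Idi1 in AAV-GFP (287 counts).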

Other observations

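Among the 34 further genes of sterol metabolism, 3 lay past 2-fold only after the trends with GC content and length were removed, and they were picked out after their values were seen. That is 1 higher (2.94%, against 7.49% of all genes) and 2 lower (5.88%, against 8.41% of all genes), so their number is not above that among all genes. Por, which supplies electrons to several steps of synthesis, has 58.3% GC and a trend value of -0.70, and its adjusted log2 ratio was 1.22. Lipa, the lysosomal acid lipase, has 42.2% GC and a trend value of 1.13, and its adjusted value was -1.27. Rnf145, a ubiquitin ligase of sterol control, had 1169 and 857 counts, 44.5% GC and an adjusted value of -1.06. These values come from 1 library per group and were not tested.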
